A study of Mus musculus with 5 samples.

Results

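Runx3-bound and H3K4me1-marked regions were examined at 9 genes of the BCL2 family in IL-2-activated NK cells (NKC). The genes were Bcl2, Bcl2l1, Mcl1, Bax, Bak1, Bcl2l11, Bid, Bbc3 and Pmaip1, taken from a list of names, out of 22208 protein-coding genes that the GENCODE M1 annotation places on the autosomes and the X chromosome. A peak was given to a gene when it overlapped the gene or the 20 kb to either side, called its window here. By this rule 26 of 11676 Runx3 peaks and 120 of 34204 H3K4me1 peaks belonged to the 9 genes, whose windows spanned 696 kb in all. The cells were splenic NKC of ICR mice, an outbred strain, enriched by negative selection and sorted for DX5+ cells. They were grown for 7 days with 1000 units/ml of human recombinant IL-2 until they were NKp46+. The paper names ICR where it describes its CD8+ T cells. It took NKC from wild-type and Runx3-/- spleens, and its ChIP methods state no genotype. ChIP-seq was done with an anti-Runx3 antibody in 2 libraries, with an antibody to H3K4me1, a histone mark found at enhancers, in 1 library, and with non-immune rabbit serum (NIS) as control in 2 libraries. All libraries came from the same kind of culture, so no genotype, treatment or time is compared here. The authors joined the reads of the Runx3 libraries before calling peaks against NIS, and the lists give only where each peak starts and ends. Peak height, read depth at a peak and the spread between libraries cannot be read from them, every value below has no replicate error, and no test over samples was possible. Intervals given for shares cover counting error only, and peaks that share a locus are not independent.

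Proteins of the BCL2 family decide whether the outer membrane of the mitochondrion is breached, the step that commits a cell to intrinsic apoptosis. Bax and Bak1 form the pores, Bcl2, Bcl2l1 (Bcl-xL) and Mcl1 hold them in check, and the BH3-only proteins Bcl2l11 (Bim), Bid, Bbc3 (Puma) and Pmaip1 (Noxa) relay stress signals by binding the guardians or the pore formers. In lymphocytes this balance sets survival when cytokine is given or withdrawn, and NKC depend on IL-2 or IL-15 signals and on Mcl1 to stay alive. Runx3 is a transcription factor of cytotoxic lymphocytes that binds the RUNX motif.

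RUNX motifs were searched on both strands as TGTGGT or TGTGGC or TGCGGT or TGCGGC. The 30 bases around the motif closest to the centre of the Runx3 peak nearest to the transcription start site (TSS) show what Runx3 peaks held next to each gene. They are written 5′ to 3′ on the strand of the gene, in mm9, with RUNX motifs in capitals. At Bcl2 the stretch was chr1:108610570-108610599 (minus strand), at Bcl2l1 chr2:152657288-152657317 (minus), at Mcl1 chr3:95462753-95462782 (plus), at Bcl2l11 chr2:127951732-127951761 (plus), at Bax chr7:52722171-52722200 (minus), at Bak1 chr17:27149446-27149475 (minus), at Bid chr6:120865282-120865311 (minus) and at Bbc3 chr7:16898548-16898577 (plus).
Bcl2: ctcccgcagcgcACCACAcacagtgcgcgg
Bcl2l1: gcatacttcccaGCCGCAaaacgccctagt
Mcl1: ttcccctcagccTGCGGCgtccgaccatgt
Bcl2l11: gggggctcaactACCGCAgagtctcaagag
Bax: tgaccgtggtgcGCCGCAgccgccggggcg
Bak1: tttcTGTGGTaaGCCACAgcaaccaactca
Bid: aagccggctggaTGTGGCatgctctataaa
Bbc3: catcaggccaatGCCACAtccgggggtgtg
The first 5 stretches lay at the starts of their genes, with centres 267, 162, 124, 28 and 83 bp from the 5′ end, and all but that of Bcl2 carried TGCGGC or TGCGGT on either strand. Those of Bak1, Bid and Bbc3 lay farther away and carried TGTGGT or TGTGGC. The stretch of Bak1 held 2 motifs in opposite directions, 2 bases apart.

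Runx3 peaks were found in the windows of 8 of the 9 genes, and in those of 41.2% of all coding genes. The same 8 had an H3K4me1 peak, against 51.2% of coding genes. All 8 had a Runx3 peak that overlapped an H3K4me1 peak, against 20.5%. At Bax, Bak1 and Bbc3 the only such peak was centred outside the gene. It lay nearer to the coding TSS of Ftl1, Ggnbp1 and Ccdc9, respectively. A Runx3 peak was centred within 1 kb of an own TSS at 6 genes, Bcl2, Bcl2l1, Mcl1, Bcl2l11, Bax and Bbc3, against 13.3% of coding genes. Pmaip1 alone had neither peak, as did 41.5% of coding genes. The number of Runx3 peaks ranged from 0 to 6 with a median of 2, and that of H3K4me1 peaks from 0 to 47 with a median of 8. Over all coding genes these medians were 0 and 1. Longer windows can hold more peaks, so each gene is also set beside the coding genes whose windows were within 10% of its own length. The map of the loci and the plot of peak number against window length show both. The coding genes used for comparison, here and below, were taken whether or not they are expressed in NKC. In resting cells the paper reports that Runx3 binding of genes went with their expression above background. Whether the 9 genes differ from other expressed genes was not tested.

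**Figure D1:**
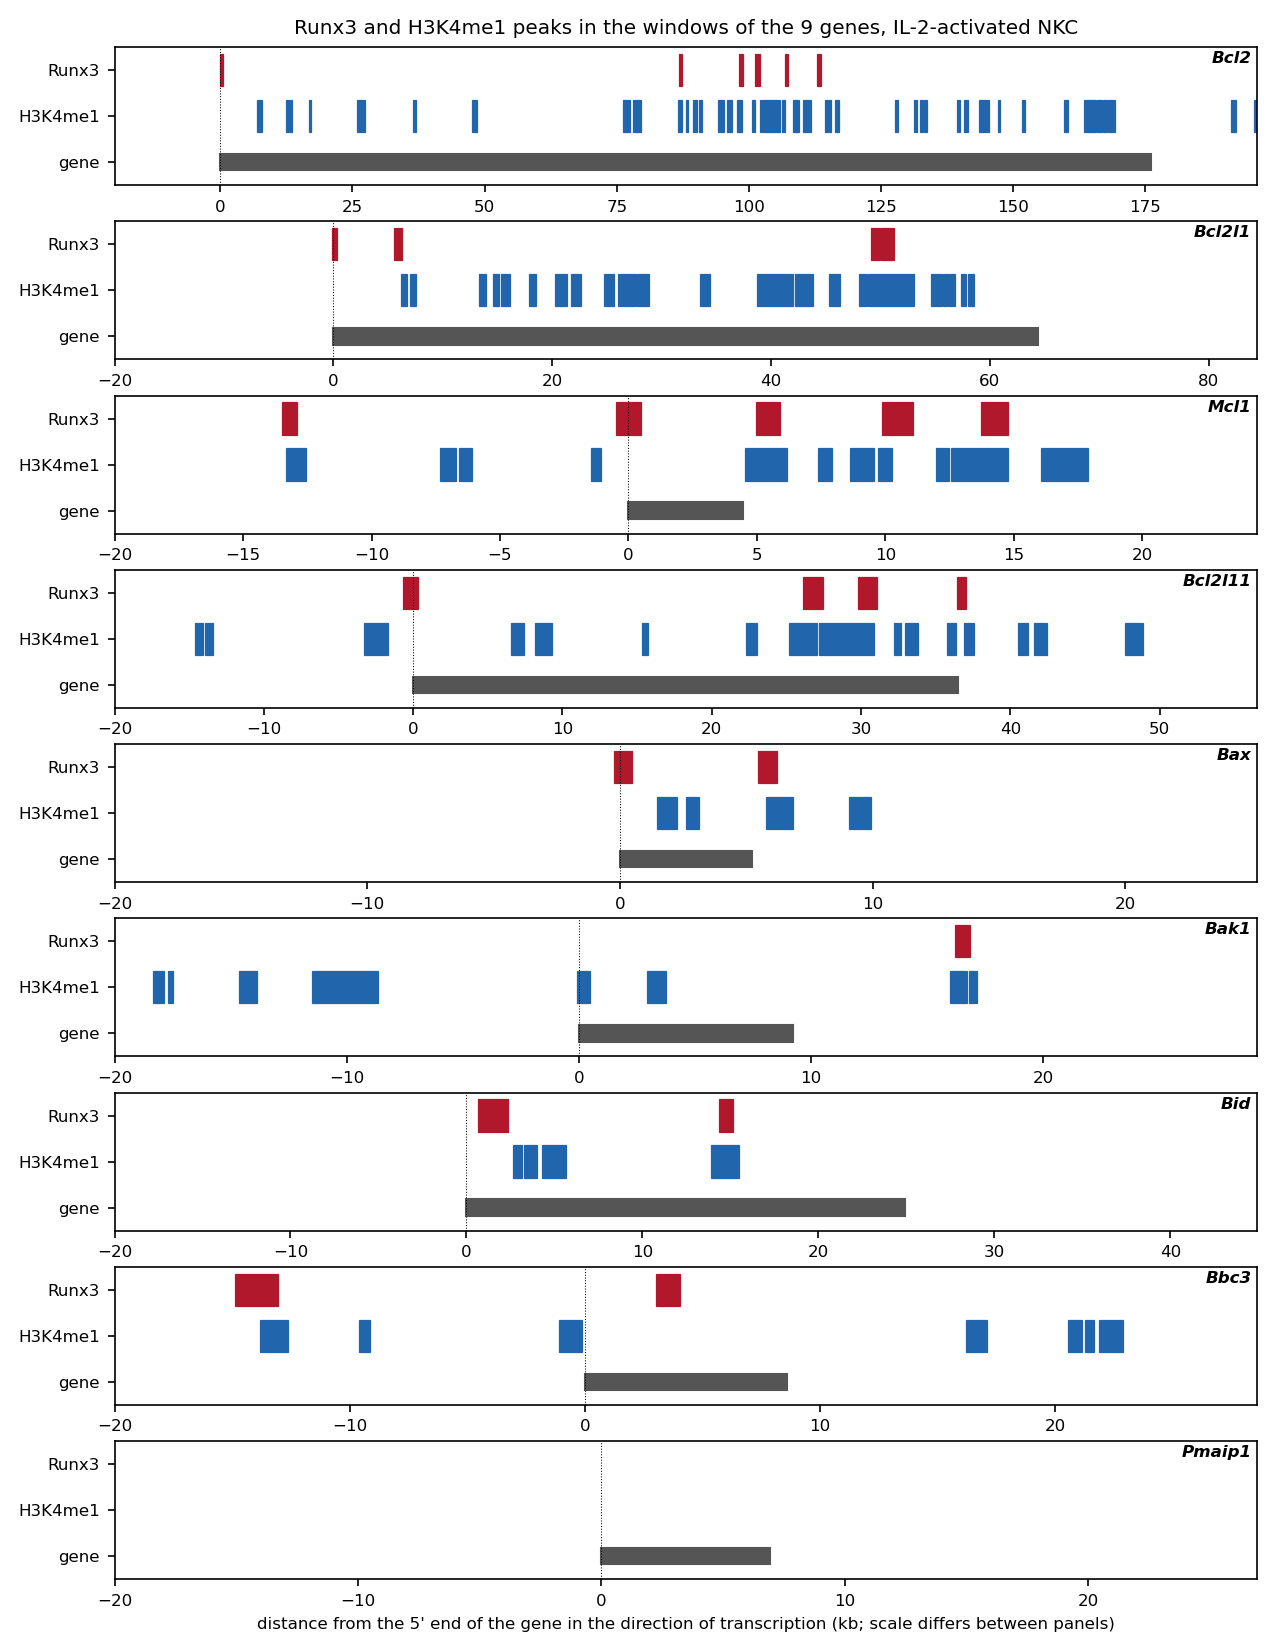
Runx3 peaks (red), H3K4me1 peaks (blue) and the gene (grey) in the window of each of the 9 genes, plotted against the distance in kb from the 5′ end of the gene in the direction of transcription, with a dotted line at that end and a scale of its own in each panel. Bcl2 held 6 Runx3 and 47 H3K4me1 peaks, and Pmaip1 held none of either.

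**Figure D2:**
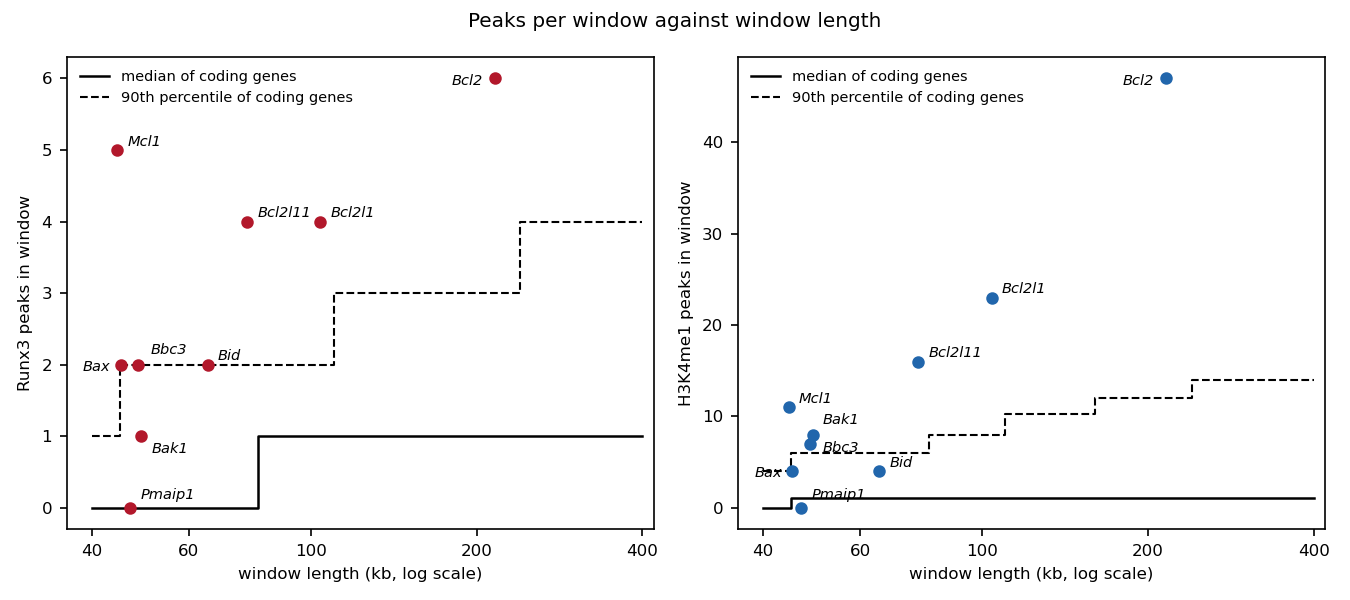
Number of Runx3 peaks (left, red points) and H3K4me1 peaks (right, blue points) in the window of each of the 9 genes against window length in kb on a log scale. Lines give the median (solid) and the 90th percentile (dashed) of coding genes in 8 classes of window length, and Bcl2, Bcl2l1, Mcl1 and Bcl2l11 lie above the dashed line in both plots.

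The anti-apoptotic genes Bcl2, Bcl2l1 and Mcl1 held 15 of the 26 Runx3 peaks and 81 of the 120 H3K4me1 peaks, in windows that included the longest of the 9. Per 100 kb of window, Runx3 peaks numbered 2.78 at Bcl2, 3.83 at Bcl2l1 and 11.2 at Mcl1, and from 2.03 at Bak1 to 5.23 at Bcl2l11 at the other 5 genes that had any, so that per length Mcl1 alone of the anti-apoptotic genes lay above this range. H3K4me1 peaks per 100 kb numbered 21.7, 22.0 and 24.7 at the anti-apoptotic genes and 20.9 at Bcl2l11, and from 6.16 at Bid to 16.3 at Bak1 at the other 4. The medians of the anti-apoptotic genes were 5 Runx3 and 23 H3K4me1 peaks. Those of the pore formers Bax and Bak1 were 1.5 and 6, and those of the 4 BH3-only genes 2 and 5.5.

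Bcl2 (chromosome 1, 108434755 to 108610851, minus strand) had 6 Runx3 and 47 H3K4me1 peaks in its window of 216 kb. Of 384 coding genes with windows of like length, 3.39% had at least as many Runx3 peaks and 0.781% at least as many H3K4me1 peaks. The H3K4me1 peaks covered 17.1% of the window, where the median of the like windows was 0.412%. The Runx3 peaks fell in 2 places. The first, at 108610334 to 108610948, was centred 210 bp from the TSS in the 5′ UTR, contained the TSS and held 2 RUNX motifs. The other 5 lay together in the long intron, 86987 to 113263 bp from the TSS, within 26.9 kb that also held 16 H3K4me1 peaks. No Runx3 peak was found between the TSS and this group. Among the 5, that at 108523585 to 108524144 lay wholly inside an H3K4me1 peak and that at 108512002 to 108512726 was 67.0% covered by 2 of them. The peaks at 108497209 to 108497967, 108503437 to 108504048 and 108508844 to 108509708 overlapped none. The last of these sat in a gap of 1088 bp between H3K4me1 peaks, with 162 and 61 bp free on its sides, and held 4 RUNX motifs, the nearest 4.5 bp from its centre. Each of the others held 2. The 3 intronic peaks without H3K4me1 overlap each contained a STAT motif (TTCNNNGAA), 4 motifs in all. The 2 intronic peaks with overlap contained none, and neither did the start peak, which had no overlap. At other genes the split did not hold throughout. A STAT motif also lay in a Bcl2l1 peak (152607466 to 152608339) and a Mcl1 peak (95472517 to 95473708), covered by H3K4me1 over 100% and 30.7%. The start peak of Bcl2l11, without overlap, held one as well. The split in Bcl2 also rests on counting direct overlap only. The peaks at 108503437 to 108504048 and 108508844 to 108509708 came within 55 and 61 bp of an H3K4me1 peak. Whether STAT motifs go with the absence of overlap was not tested. STAT5 is the factor that IL-2 activates. The motif was present in 21.6% of all Runx3 peaks and in 20.4% of windows of the same width 10 kb away from them. The intronic peaks were nearer to the TSS of the noncoding gene D630008O14Rik than to that of Bcl2, and Bcl2 had the nearest coding TSS.

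Bcl2l1 (chromosome 2, 152593052 to 152657464, minus strand) had 4 Runx3 and 23 H3K4me1 peaks in its window of 104 kb, all of them within the gene. Of 1230 genes with windows of like length, 5.20% had at least as many Runx3 peaks and 1.30% at least as many H3K4me1 peaks. H3K4me1 peaks covered 23.1% of the window, and 0.673% was the median of the like windows. The marks lay in the body of the gene and not at its start. A Runx3 peak of 504 bp at 152657118 to 152657621 was centred 49 bp from a TSS in the 5′ UTR, and the nearest H3K4me1 peaks began 5825 bp downstream and 71385 bp upstream of it. The next, at 152651181 to 152651921 in the intron, was centred 2720 bp from a TSS and 15.1% of it lay in an H3K4me1 peak. The remaining pair, 152606238 to 152607375 and 152607466 to 152608339, was separated by 90 bp and lay toward the other end of the gene, in its 3′ UTR and a coding exon. Both were wholly inside an H3K4me1 peak of 4186 bp, a width that 0.155% of all H3K4me1 peaks reached, and held 6 and 5 RUNX motifs. Their nearest coding TSS was that of Cox4i2, 25976 and 27072 bp away.

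Mcl1 (chromosome 3, 95462643 to 95467099, plus strand) is a short gene, and its peaks lay mostly outside it. Its window of 44.5 kb held 5 Runx3 and 11 H3K4me1 peaks, or 11.2 Runx3 peaks per 100 kb, the highest density of the 9 genes. Of 8192 genes with windows of like length, 0.415% had at least as many Runx3 peaks and 0.903% at least as many H3K4me1 peaks. H3K4me1 peaks covered 23.7% of the window, where the median of the like windows was 0. A Runx3 peak of 952 bp (95462165 to 95463116) was centred 3 bp from the TSS, lay outside H3K4me1 and held 3 RUNX motifs, of which 2 were TGCGGC. Downstream of the gene followed 3 more, centred 5422, 10469 and 14252 bp from the TSS (95467604 to 95468527, 95472517 to 95473708 and 95476370 to 95477420). They overlapped H3K4me1 peaks over 100%, 30.7% and 99.5% of their widths and held 3, 3 and 4 RUNX motifs. The first of them was nearest to the TSS of Mcl1. The others were nearer to that of Adamtsl4, 7962 and 4179 bp away. A peak 13182 bp upstream (95449167 to 95449755) overlapped H3K4me1 over 73.2% of its width and contained no RUNX motif.

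The downstream Mcl1 peak that lay nearest to the gene is printed because it carried RUNX motifs beside an AP-1 motif (TGACTCA on either strand). Its central 190 bp (chr3:95467982-95468171, plus strand) contained, in capitals, a TGTGGC read on the other strand, a TGTGGT and then the AP-1 motif.
Mcl1, 5433 bp downstream of the TSS: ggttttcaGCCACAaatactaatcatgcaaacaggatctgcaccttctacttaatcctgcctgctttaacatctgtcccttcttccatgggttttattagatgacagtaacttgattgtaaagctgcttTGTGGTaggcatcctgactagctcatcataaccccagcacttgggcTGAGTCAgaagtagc
The whole peak held 2 AP-1 motifs. It was chosen for print after its motifs had been seen, as were the stretches shown for Bax and for the intron of Bcl2l11.

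The pore formers differed from each other in where Runx3 peaks lay. Bax (chromosome 7, 52717065 to 52722268, minus strand) had a Runx3 peak at its start. Bak1 (chromosome 17, 27156755 to 27165954, minus strand) had none centred within 10 kb of any of its TSSs. The Bax start peak, 52721808 to 52722497, was centred 7 bp from a TSS in the 5′ UTR and held 3 RUNX motifs, all TGCGGC, without H3K4me1 overlap. The second peak, at 52716047 to 52716800, lay beyond the end of Bax, 60.3% of it in an H3K4me1 peak, and held 6 RUNX motifs. It was centred 1169 bp from the TSS of Ftl1, the ferritin light chain gene, and 5722 bp from that of Bax, so its gene cannot be told from position. The window of Bax, 45.2 kb, held 4 H3K4me1 peaks, a number that 15.3% of 7933 genes with like windows reached, and 12.2% reached its 2 Runx3 peaks.

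The downstream Bax peak is shown from its first to its last RUNX or AP-1 motif near the centre (chr7:52716343-52716535, minus strand, 193 bases), with these motifs in capitals.
Bax, 5829 bp downstream of the 5′ end: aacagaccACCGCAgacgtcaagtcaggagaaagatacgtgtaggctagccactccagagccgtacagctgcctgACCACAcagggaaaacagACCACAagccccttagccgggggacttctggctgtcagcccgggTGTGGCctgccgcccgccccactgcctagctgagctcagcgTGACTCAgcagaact
The stretch holds 4 RUNX motifs, of 3 variants, and the AP-1 motif at its downstream end.

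Bak1 had 8 H3K4me1 peaks in its window of 49.2 kb, which 5.20% of 5324 genes with like windows reached, and 1 Runx3 peak, which 41.8% reached. Its number of Runx3 peaks was thus close to that of coding genes at large. That peak (27149098 to 27149760) was centred 10302 bp from the nearest Bak1 TSS, inside the gene Ggnbp1 and 5529 bp from its TSS, and 87.8% of it was covered by 2 H3K4me1 peaks. Bak1 was also the gene whose 5′ end had the nearest H3K4me1 peak, centred 206 bp from it and overlapping it (27165461 to 27166035). The widest H3K4me1 peak of the window, 2858 bp, lay upstream of the gene.

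Bcl2l11 (chromosome 2, 127951774 to 127988283, plus strand) had the most peaks of the BH3-only genes, 4 Runx3 and 16 H3K4me1 peaks in 76.5 kb. Of 2155 genes with like windows, 3.02% had at least as many Runx3 peaks and 1.30% at least as many H3K4me1 peaks. The start peak (127951067 to 127952095) was 1029 bp wide, was centred 193 bp upstream of the TSS and held 4 RUNX motifs, 2 TGCGGT, 1 TGCGGC and 1 TGTGGT, without H3K4me1 overlap. It also held 2 FOXO motifs (TGTTTAC), which 6.27% of all Runx3 peaks within 1 kb of a TSS contained at least once. FOXO factors are known activators of this gene. The other Runx3 peaks lay toward the end of the gene within 10.9 kb. Those at 127977881 to 127979242 and 127981536 to 127982860 were in an intron, were 1362 and 1325 bp wide and were covered by H3K4me1 peaks over 92.0% and 84.3% of their widths. That at 127988195 to 127988809 crossed the end of the gene, with its centre downstream, held no RUNX motif and was 23.9% covered.

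The second intronic peak of Bcl2l11 held 13 RUNX motifs, a number reached by 0.642% of all Runx3 peaks. Of these, 9 fell into 130 bp, which are printed because they form a repeated array (chr2:127981856-127981985, plus strand, RUNX motifs in capitals).
Bcl2l11, intron, 30146 bp downstream of the 5′ end: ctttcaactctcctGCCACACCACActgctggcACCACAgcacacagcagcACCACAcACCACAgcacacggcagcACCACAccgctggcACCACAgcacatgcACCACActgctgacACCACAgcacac
All 9 read in the same direction, and 8 were TGTGGT on the minus strand. The step from the start of a motif to that of the next was 14 bp in 4 cases, 18 bp in 2, and 7 and 5 bp in 1 each. The motif nearest to the peak centre was 104.5 bp away, and the central 200 bp held none. Which part of the peak Runx3 bound was not measured.

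Bid (chromosome 6, 120841948 to 120866871, minus strand) had 2 Runx3 and 4 H3K4me1 peaks in 64.9 kb, which 18.3% and 22.1% of 3061 genes with like windows reached. The first, at 120864492 to 120866197, was 1706 bp wide, a width 0.488% of Runx3 peaks reached, and lay in the first part of the gene, centred 1472 bp from the nearest TSS. It held 6 RUNX motifs, overlapped no H3K4me1 peak and ended 266 bp short of one. The second, at 120851721 to 120852522 in an intron, lay wholly inside an H3K4me1 peak of 1592 bp and held 2 RUNX motifs. That second peak also fell in the window of the family gene Bcl2l13. Around the 5′ end of Bid, 66.0% of 40-mers within 500 bp were unique in the genome, where the other 8 genes had 100%, so fewer uniquely aligned reads could fall there.

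Bbc3 (chromosome 7, 16894965 to 16903554, plus strand) had 2 Runx3 and 7 H3K4me1 peaks in 48.6 kb. Of 5546 genes with like windows, 16.8% and 7.55% had at least as many. The Runx3 peak at 16897978 to 16898999 lay in an intron, 3523 bp from the 5′ end of the gene, and was centred 378 bp from the TSS of a shorter transcript annotated as noncoding. It held 5 RUNX motifs and no H3K4me1 overlap. The other, at 16880089 to 16881935, was centred 13953 bp upstream and was 1847 bp wide, the widest of the 26, a width 0.257% of Runx3 peaks reached. It was 41.3% covered by an H3K4me1 peak, held 3 RUNX motifs and lay nearer to the TSS of Ccdc9, 8868 bp away. The 5′ end of Bbc3 itself had no Runx3 peak within 1 kb and an H3K4me1 peak centred 598 bp upstream.

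The Runx3 peaks within 1 kb of an own TSS, called start peaks here, and those farther away differed in H3K4me1. The start peak of Bbc3 lay at the TSS of a shorter transcript, 3523 bp from the 5′ end of the gene. None of the 6 peaks within 1 kb of an own TSS overlapped an H3K4me1 peak (0 of 6, for which the exact 95% interval reaches 45.9%), while 20.5% of all 2950 Runx3 peaks that close to a TSS did. Of the 20 peaks farther away, 16 overlapped one (exact 95% interval 56.3% to 94.3%), while 57.8% of the 8726 such peaks did. The 4 without overlap were the 3 intronic peaks of Bcl2 named above and the wide one of Bid. Together 16 of 26 overlapped (61.5%, exact 95% interval 40.6% to 79.8%), and 12 had their centre inside an H3K4me1 peak. When H3K4me1 within 500 bp of a Runx3 peak was also counted, the number was 19. The stretch without H3K4me1 around the 6 start peaks ran from 5.63 kb at Mcl1 and 8.23 kb at Bcl2l11 over 16.3 kb at Bbc3, 25.2 kb at Bax and 50.8 kb at Bcl2 to 77.7 kb at Bcl2l1. On the H3K4me1 side, 17 of the 120 peaks (14.2%) overlapped a Runx3 peak, and 19.9% of all H3K4me1 peaks did. Of the 120, 85 were in the genes, 14 upstream and 21 downstream, and only those of Bak1 and Bbc3 named above were centred within 1 kb of a 5′ end. The plot of H3K4me1 around each Runx3 peak shows the 2 kinds of site.

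**Figure D3:**
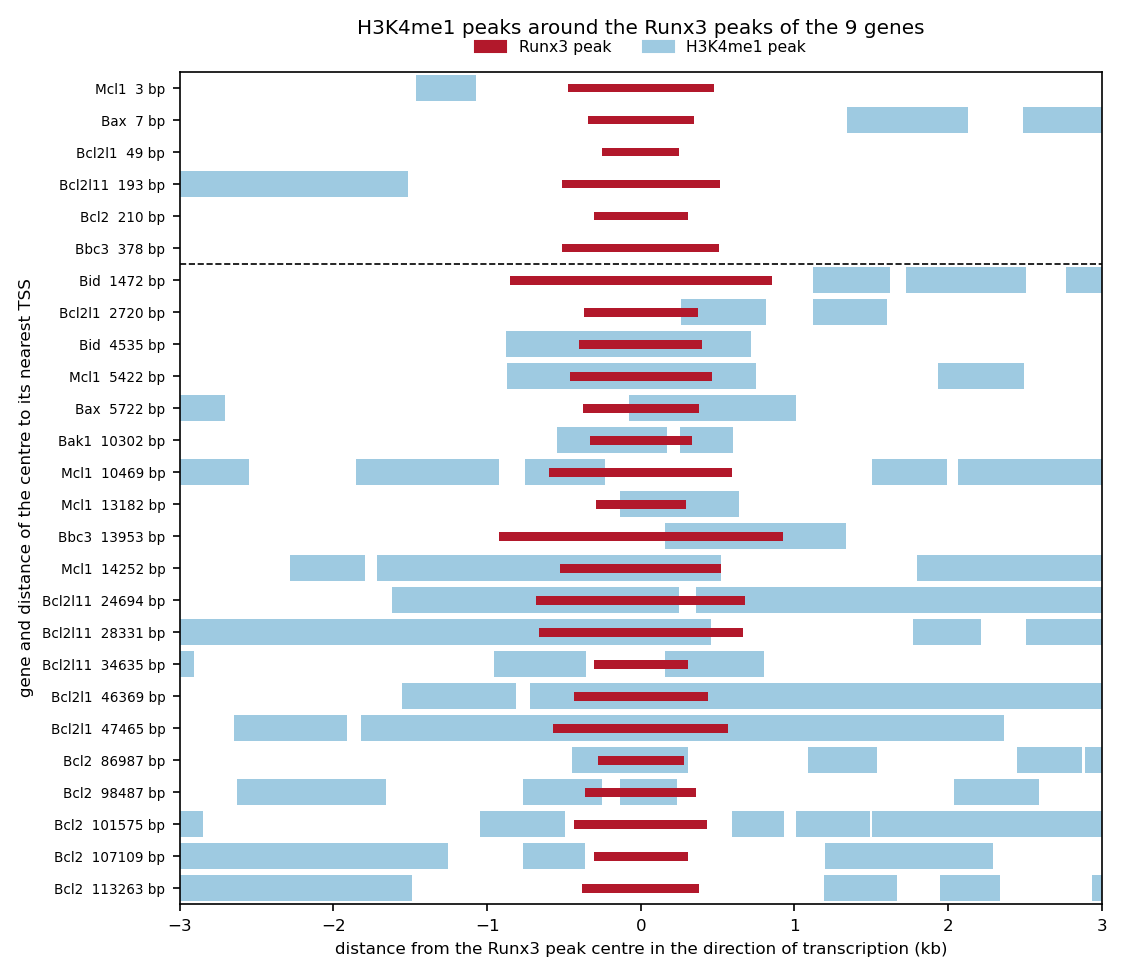
H3K4me1 peaks (light blue) within 3 kb of the centre of each of the 26 Runx3 peaks (red, drawn to width), ordered by distance from the centre to the nearest TSS of the gene, with that distance in bp at the left and the x axis in kb in the direction of transcription. The 6 peaks above the dashed line are within 1 kb of a TSS and none touches an H3K4me1 peak, whereas 16 of the 20 below do.

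RUNX motifs were found in 24 of the 26 Runx3 peaks, close to the 96.0% of all Runx3 peaks and above the 69.8% of windows of the same width 10 kb away. The exceptions were the upstream peak of Mcl1 and the peak past the end of Bcl2l11. In the central 200 bp a RUNX motif was found in 16 of the 26, for which no share over all Runx3 peaks is given. The peaks held 91 motifs in all, from 0 to 13 with a median of 3. The variants split by position. TGCGGC was in 5 of the 6 start peaks and in 1 of the 20 others, and TGTGGT was in 4 of 6 and 18 of 20. Over all Runx3 peaks TGCGGC was in 47.8% of those within 1 kb of a TSS and 9.59% of those farther away, and TGTGGT in 52.7% and 83.7%. Start peaks of these genes were also richer in G and C, with a median of 64.5% against 50.6%. The start peak without TGCGGC was that of Bbc3, which lay away from the 5′ end of its gene. The AP-1 motif was in 0 of 6 start peaks and 7 of 20 others, where all Runx3 peaks had 13.7% and 30.5%. An ETS motif (AGGAAA or AGGAAG or CGGAAA or CGGAAG), bound by partners of Runx factors, was in 23 of 26, and 91.4% of all Runx3 peaks and 84.6% of the windows held one. FOXO motifs were in 4 of the 26, in 8.41% of all Runx3 peaks and in 9.40% of the windows. STAT motifs were in 6 of the 26, in 21.6% of all Runx3 peaks and in 20.4% of the windows. A RUNX motif can overlap another, and an ETS motif can overlap a STAT motif. The shares over the 9 genes rest on few peaks and were not tested.

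**Figure D4:**
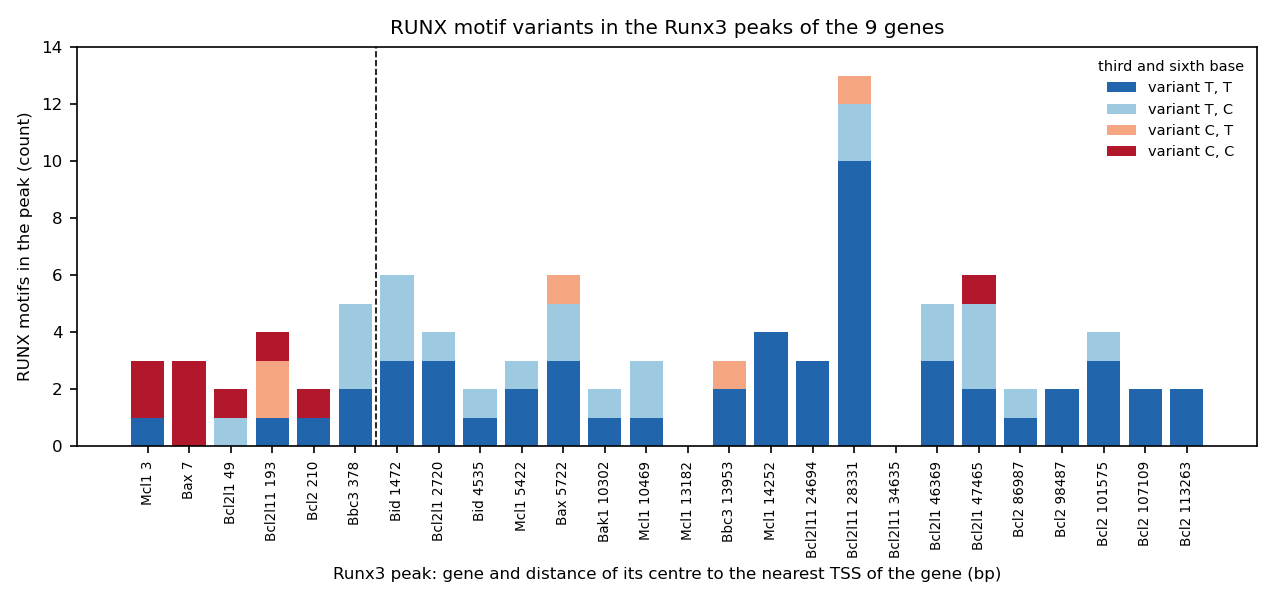
Number of RUNX motifs in each of the 26 Runx3 peaks, stacked by variant (named by the third and sixth base of the motif), with peaks ordered by distance of the centre to the nearest TSS of the gene in bp and the 6 within 1 kb left of the dashed line. The C, C variant appears in 5 of the 6 peaks on the left and in 1 on the right, and an intronic Bcl2l11 peak reaches 13 motifs.

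Of 14 further BCL2 family genes, 6 had a Runx3 peak in their window (Bad, Bik, Bmf, Bcl2l12, Bcl2l13 and Bcl2l15) and 10 an H3K4me1 peak. Their medians were 0 and 1 peaks, which were also the medians of all coding genes. Of all coding genes, 41.2% had a Runx3 peak and 51.2% an H3K4me1 peak, so the 14 were close to coding genes at large in Runx3 peaks. Of the 14, only Bcl2l12 had a Runx3 peak within 1 kb of a TSS, against 13.3% of coding genes. The 5 anti-apoptotic genes among these, Bcl2l2, Bcl2l10 and the copies Bcl2a1a, Bcl2a1b and Bcl2a1d, had no Runx3 peak, nor had the pore former Bok. The Bcl2a1 copies are nearly identical, and between 23.5% and 33.4% of the 40-mers in their windows were unique, so that uniquely aligned reads could cover only part of these loci. Of 21 genes that act before or after the family in apoptosis, 13 had a Runx3 peak and 14 an H3K4me1 peak, with medians of 1 and 2. These counts also stand beside the 41.2% and 51.2% of all coding genes, and the difference was not tested. Of the apoptosome genes, Apaf1 had a Runx3 peak, while Cycs and Casp9 had none. The most Runx3 peaks of both lists were found at Bcl2l15 with 4, Foxo3 with 3, and Birc5, the gene of survivin, with 3. Foxo3 is a factor known to activate Bcl2l11, and its 3 Runx3 peaks all overlapped H3K4me1 peaks.

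Bcl2 had the most Runx3 peaks of the 9 genes. By the sum of the differences in 3 numbers (Runx3 peaks, H3K4me1 peaks and Runx3 peaks overlapping H3K4me1), the coding genes most like it were Sipa1l1 (a sum of 1, with 6, 47 and 3), Cux1 (2, with 6, 46 and 3) and Rptor (5, with 6, 44 and 4). Their windows were longer, at 322, 359 and 337 kb. As a check of the labelled cell type, all 8 NKC genes examined (Ncr1, Klrb1c, Klrk1, Il2rb, Eomes, Tbx21, Prf1 and Gzmb) had both kinds of peak, with a median of 8 H3K4me1 peaks. H3K4me1 peaks were at 3 of 4 B cell genes (median 1.5), 2 of 4 T cell genes (median 2) and 3 of 4 myeloid genes (median 4.5). Of these genes Ms4a1, Cd8a, Cd8b1 and Lyz2 had none. Runx3 peaks were at 2 of 4 genes of each of these types. The numbers overlapped between these lists, since Itgam of the myeloid list had 17 H3K4me1 peaks, and Ncr1, Klrk1 and Eomes had 2 each. Whether each listed gene is particular to the cell type it was listed for was not examined.

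The rule puts a limit at 20 kb. The Runx3 peak just inside it was that upstream of Bbc3, whose edge was 13030 bp from the gene, and the one just outside lay 21845 bp beyond the end of Bcl2 (108412083 to 108412910). For H3K4me1 these were at 19390 bp from Bcl2 and 20514 bp from Mcl1. Of the 26 Runx3 peaks, 19 had the member as their nearest coding TSS and 7 another gene.

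Pmaip1 (chromosome 18, 66618258 to 66625204) stood apart from the other 8 genes, with no Runx3 and no H3K4me1 peak in its window of 46.9 kb. Of 6078 genes with like windows, 40.0% had a Runx3 peak. The nearest Runx3 peak lay 639 kb from the gene and the nearest H3K4me1 peak 235 kb, both upstream, so no wider flank up to 50 kb added any. Its sequence would have allowed alignment, since 95.4% of the 40-mers in the window and all of those within 500 bp of the TSS were unique. The lists hold peaks that passed the threshold of the authors' peak caller, and a weaker signal at Pmaip1 would not appear in them.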

How the data were processed

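Short reads were aligned by the authors with ELAND (mm9), and those with a unique position were used. MACS then compared the reads of each antibody, joined for Runx3, with NIS, the larger dataset having been scaled down. The deposited lists hold, per peak, the chromosome, start and end in bp, and for Runx3 a running name. Starts, counted from 0 there, are given from 1. GENCODE M1, on the same build (NCBIM37), gave genes and TSSs. A peak belonged to a gene when 1 bp or more lay in the gene or its 20 kb flanks, and H3K4me1 overlap also needed 1 bp. Coding genes with the same symbol were counted once. Motifs were searched in whole peaks, and for comparison in all Runx3 peaks and in equally wide windows 10 kb away on each side. Uniqueness was the share of 40-mers found once on either strand of the genome.

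The members, lists and motifs were chosen with earlier results of these data known. Every member was to be named, with each of its Runx3 peaks where it had up to 8, the 3 genes of the pathway lists with the most Runx3 peaks, and the 3 coding genes most like the member with the most. The shares of the members' Runx3 peaks that overlapped H3K4me1 have exact (Clopper-Pearson) 95% intervals, and the other shares have none. No test was made, since the lists hold no values per library. Alternatives were other flanks, joined peaks, other overlap, motif and TSS rules, and assignment to the nearest TSS within 50 kb or by GREAT domains (a core of 5 kb before and 1 kb after the TSS, extended by up to 1000 kb). Overlap and motif counting were tested on simulated data. The tools were samtools 1.23.1, pysam 0.24.0, matplotlib 3.10.9, scipy 1.17.1 and numpy 2.4.6 under python 3.11.15.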

Additional observations from a re-analysis of the deposited data

How the results depend on the processing

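Of 46 values under the alternatives, 40 were within 1.5 times the value given in the report. With the gene body alone, 9 Runx3 peaks of the members overlapped an H3K4me1 peak in place of 16, and with flanks of 50 kb 27 did, while 37 held a RUNX motif in place of 24. Joining peaks closer than 1 kb left 66 H3K4me1 peaks in place of 120. Giving each peak to the nearest coding TSS within 50 kb assigned 16 Runx3 peaks to the members in place of 26. Bcl2 kept 1 of its 6, while Bid had 4 against 2 in its window, so the 16 are not all among the 26. The GREAT rule gave 53, among them 27 of Bcl2l11. These follow from how each rule is built. The number of members with a Runx3 peak was 7 or 8 under every assignment rule tried, and Bak1 had none with flanks of 5 kb or with the gene body alone. Leaving out a library was not possible, since peaks were called on joined reads, and without heights a stricter threshold could not be set.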

Other observations

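Runx3 peaks beyond the 20 kb flanks added to some members and not to others. The GREAT domain of Bcl2l11, which extends to the neighbouring genes, held 27 Runx3 peaks, of which 4 lay in its window, and that of Bid held 6 against 2. The domains of Bcl2l1, Mcl1, Bak1 and Bbc3 held the same number as their windows, 4, 5, 1 and 2. That of Bcl2 held 7 against 6, and that of Bax held 1 against 2. With flanks of 50 kb, Bak1 had 4 Runx3 peaks in place of 1 and 17 H3K4me1 peaks in place of 8, and Bbc3 had 19 H3K4me1 peaks in place of 7. The nearest Runx3 peak outside the window lay 71.7 kb from Bcl2l1, 48.1 kb from Bbc3, 46.0 kb from Bak1 and 44.2 kb from Mcl1. No test was run on these values.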
